A study of Cucumis sativus with 4 samples.

Results

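The leaf response of cucumber (Cucumis sativus) to low nitrogen was read from 2 leaf libraries, 1 of plants on low nitrogen and 1 of control plants. The members are the 9051 genes, of 18665 in the deposited table, whose mean over the 2 leaf libraries was at least 5 RPKM, a read count scaled by gene length and by library depth. The mean is taken over both compared libraries, so a gene low in 1 of them can be a member through its level in the other: of the genes called below, 192 of the 454 higher ones were under 5 RPKM in control leaf and 122 of the 620 lower ones were under 5 RPKM in low nitrogen leaf. Plants of the leaf low nitrogen group received 1 mM nitrate and those of the leaf control group 5 mM, and nitrate was the nitrogen source that the labels name for the control solution. The low nitrogen solution replaced the missing salts with others, so it also held 1.45 mM sulfate against 0.25 mM in the control solution, and 1.8 mM chloride against 0.2 mM. Both groups were grown in sand under 14 h of light to 28 days after sowing, with 0.1 g of tissue taken per sample and 6 µg of total RNA put into each library. The sources used here do not give the cultivar, the position and age of the leaf, the number of plants pooled or the hour of harvest. Each group is 1 library, so no difference below has a replicate check, and none carries a test.

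Nitrate that reaches a leaf is reduced to nitrite and then ammonium, and the ammonium is built into glutamine and glutamate. Most leaf nitrogen sits in the proteins of the chloroplast, above all Rubisco and the chlorophyll-binding antenna proteins. When nitrogen runs short, plants commonly make less of the photosynthetic apparatus and recycle nitrogen from old leaves, and the growth and division of young leaf cells is among the processes known to depend on nitrogen supply. Cucumber genes are described here by their closest Arabidopsis gene, as the deposited table pairs them by TAIR identifier, and the roles named are those of the Arabidopsis gene.

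The RPKM values were scaled to 2.74 M reads in low nitrogen leaf and 2.93 M in control leaf, as recovered from their smallest steps. Values above 0 were listed for 16234 genes in low nitrogen leaf and 15762 in control leaf. The organ label fitted the markers: the light-harvesting antenna genes summed to 52763 RPKM in low nitrogen leaf and 110134 in control leaf, against 174 RPKM in low nitrogen root and 146 in control root. Of 21 homologues of root cell type markers 13 were at 0 in both leaf libraries, among them those of CASP2, CASP4 and CASP5 of the root endodermis and RHD6 and RSL4 of root hairs. The 21 summed to 9.93 RPKM in low nitrogen leaf and 6.79 in control leaf, against 315 RPKM in low nitrogen root and 364 in control root.

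The log2 ratio of low nitrogen over control, with 1 RPKM added to each value, had a median of 0.32 over the 9051 genes, a 1.25-fold offset. Every ratio below is centred, that is, given relative to that median, and a gene is called higher or lower where its centred ratio is at least 1 or at most -1. On this scale 454 genes (5.02%) were higher in low nitrogen leaf and 620 (6.85%) lower, 11.9% in all. The counts of called genes in each list below are to be set against these shares. Without centring the split was 1109 higher and 290 lower, and with equal RPKM sums it was 1266 higher and 267 lower, so which direction held more genes depended on the scaling. The quartiles of the centred ratio were -0.41 and 0.40, and its 5th and 95th percentiles -1.12 and 1.00. Whole read counts could be recovered for 79.6% of the genes, with a median of 99 reads in low nitrogen leaf and 81 in control leaf. Read counts given here and below are the smallest that fit the deposited values. Of the 356 higher genes with such counts 340 had a 95% counting interval wholly above 0, and of the 446 lower genes 425 had one wholly below 0. These intervals cover counting error only, not the spread between plants. At the limits of the rule, SWP (AT3G04740) was just inside the level minimum with 5.84 RPKM in low nitrogen and 4.16 in control, and AT1G05030 just outside it with 5.74 RPKM in low nitrogen and 4.25 in control. At the call limits AT5G66770 was just inside with 20.05 RPKM in low nitrogen and 7.43 in control, and AT4G32000 just outside with 21.1 RPKM in low nitrogen and 7.87 in control.

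The share of genes called lower was largest among the most abundant transcripts, although most lower genes by number lay in classes of lower level. Of the 80 genes averaging 1000 RPKM or more 34 were lower and 3 higher, and the median of these 80 was -0.80. Among the 2400 genes between 5 and 10 RPKM 6.63% were higher and 6.04% lower. The 20 most abundant genes of each library took 25.0% of the RPKM sum in low nitrogen leaf and 32.9% in control leaf. Both metallothioneins among the 10 most abundant genes were off this pattern. MT3 (AT3G15353), a metal-binding protein, had 32371 RPKM in low nitrogen and 24058.6 in control, a centred ratio of 0.11, and MT1C (AT1G07610) had 21413 RPKM in low nitrogen and 13712 in control, a ratio of 0.32. The other 8 of the 10 all belonged to photosynthesis, and 7 of these were called lower.

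**Figure D1:**
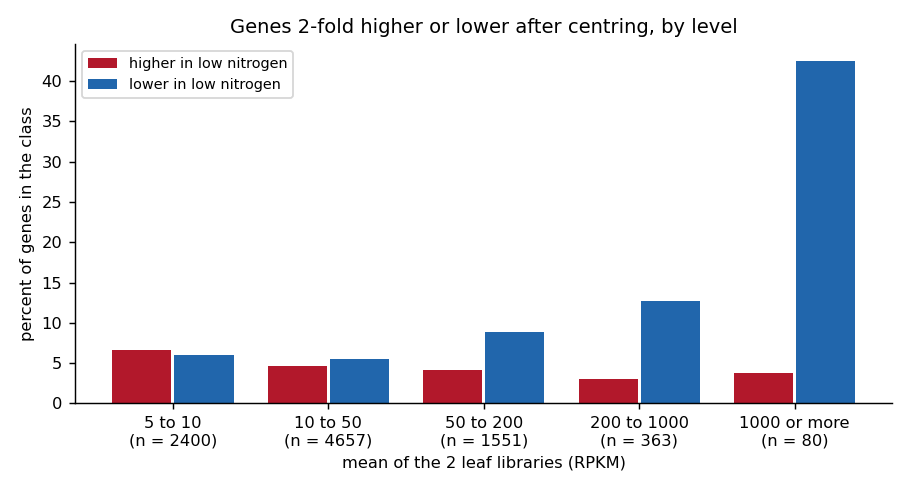
Percent of leaf genes at least 2-fold higher (red) or lower (blue) in low nitrogen after centring, in 5 classes of mean RPKM over the 2 leaf libraries. The share of lower genes is 6.04% in the class from 5 to 10 RPKM and 42.5% in the class of 1000 RPKM or more, while the share of higher genes is 6.63% and 3.75% in these classes.

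Photosynthesis genes stood low in low nitrogen leaf as a group. Over the lists of antenna, photosystem I, photosystem II, electron transport and Calvin cycle genes, 49 of 74 genes compared were lower and 0 higher, with a median of -1.16. Without centring 28 of the 74 were lower and 0 higher. Together the 79 genes of these lists in the table took 18.0% of the RPKM sum in low nitrogen leaf and 32.8% in control leaf. In a bulk sample, fewer cells of a type and less RNA per cell cannot be told apart.

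The antenna proteins bind the chlorophyll that gathers light, and 14 of the 18 antenna genes were lower, with a median of -1.49. Among the antenna genes of photosystem II, 10 of 11 were lower (median -1.52), and among those of photosystem I 4 of 7 (median -1.16). LHCB1.4 (AT2G34430, scaffold00542), of the main trimeric antenna, had 11056 RPKM in low nitrogen and 22999.6 in control, a ratio of -1.38. LHCB4.1 (AT5G01530), a minor antenna that links the trimers to the reaction centre, had 959 RPKM in low nitrogen and 3209 in control, a ratio of -2.06. Further LHCB1.4 homologues at low levels followed the same direction, with 25.8 RPKM in low nitrogen and 96.1 in control for one and 18.0 in low nitrogen and 57.1 in control for another. Near-identical LHCB1 copies may have shared reads, so their separate values are uncertain. The lowest antenna ratio, -2.56, was that of LHCA2 (AT3G61470) with 7.08 RPKM in low nitrogen and 37.2 in control. Opposite to these stood LHCA5 (AT1G45474), a scarce antenna protein outside the naming rule and named after its values were seen, with 84.9 RPKM in low nitrogen and 49.4 in control, a ratio of 0.45 that was not called.

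Reaction centre genes lay low as well, those of photosystem I within a narrow range. All 10 photosystem I genes lay below the median of all genes, between -1.75 and -0.95, and 9 were called lower. PSAN (AT5G64040), a lumenal subunit near the plastocyanin docking site, had 2701 RPKM in low nitrogen and 7279 in control, a ratio of -1.75. PSAD1 (AT4G02770), which forms the ferredoxin docking site, had 5698 RPKM in low nitrogen and 9164 in control, a ratio of -1.01 close to the call limit. In photosystem II 11 of 13 genes were lower, with a median of -1.14. PSBO2 (AT3G50820), which stabilises the oxygen-evolving cluster, had 4410.2 RPKM in low nitrogen and 10694 in control, a ratio of -1.60. The most abundant photosystem II gene, PSBX (AT2G06520), was not called, with 8542 RPKM in low nitrogen and 11564 in control, while a second PSBX homologue was lower with 278 in low nitrogen and 927 in control.

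Electron carriers and ATP synthase subunits were lower less uniformly, with 5 of 12 called and a median of -0.91. Plastocyanin PETE2 (AT1G20340), which carries electrons to photosystem I, had 6049.7 RPKM in low nitrogen and 11969 in control, a ratio of -1.3. PGR5 (AT2G05620), needed for cyclic electron flow, had 315 RPKM in low nitrogen and 749 in control, a ratio of -1.57. Ferredoxin FD1 (AT1G10960), the electron acceptor of photosystem I that also feeds nitrite reductase, had 4745 RPKM in low nitrogen and 5149.8 in control, a ratio of -0.44, and was not called.

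In the Calvin cycle, the carbon-fixing pathway, 10 of 21 genes were lower and 0 higher, with a median of -0.96. The Rubisco small subunit RBCS3B (AT5G38410, scaffold02653, symbol not listed) had 19432 RPKM in low nitrogen and 36769 in control, a ratio of -1.24. Rubisco activase differed by copy. One RCA homologue (AT2G39730, scaffold01153) had 509 RPKM in low nitrogen and 2231 in control, a ratio of -2.45, a second had 37.9 in low nitrogen and 99.05 in control, and the third, outside the naming rule, had 138 in low nitrogen and 161 in control, a ratio of -0.53. The 2 subunits of the plastid glyceraldehyde phosphate dehydrogenase were both lower, GAPB (AT1G42970) with 289.6 RPKM in low nitrogen and 897 in control and GAPA1 (AT3G26650) with 331 in low nitrogen and 701 in control. Photorespiration, which recovers carbon from the oxygenation reaction of Rubisco, had 7 of 17 genes lower and 1 higher. The glycolate oxidase homologue GOX1 (AT3G14420) was the lowest of them, with 63.9 RPKM in low nitrogen and 272 in control and a ratio of -2.39.

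Chlorophyll synthesis had 4 of 21 genes lower and 0 higher, with a median of -0.51. The called genes included CHLM (AT4G25080), a magnesium protoporphyrin methyltransferase, with 168 RPKM in low nitrogen and 382 in control, and CRD1 (AT3G56940), the cyclase subunit, with 720.2 in low nitrogen and 1336 in control. A homologue of HEMA1 (AT1G58290), of the first committed step, had 57.3 RPKM in low nitrogen and 100.5 in control, a ratio of -1.12. Another HEMA1 homologue, outside the naming rule, had 21.7 in low nitrogen and 19.7 in control, a ratio of -0.19 that was not called. PORB (AT4G27440), the light-driven reductase, was the most abundant and was not called, with 5120.0 RPKM in low nitrogen and 6926 in control. Thus the genes of the pigment lay closer to the median of all genes than those of the proteins that bind it, by their medians of -0.51 and -1.49. Of 9 chlorophyll breakdown genes 1 was lower and 0 higher, the called one being SGRL (AT1G44000), a homologue of the STAY-GREEN magnesium dechelatase, with 59.3 RPKM in low nitrogen and 169.9 in control. SGR1 (AT4G22920), the STAY-GREEN gene itself, had 13.7 RPKM in low nitrogen and 5.22 in control, a ratio of 0.92 below the call limit.

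Senescence genes were mixed: of 9 compared 1 was higher and 2 were lower, and 12 more in the table were under the level minimum. NAP (AT1G69490), a NAC factor that promotes leaf senescence, had 22.9 RPKM in low nitrogen and 5.96 in control, a ratio of 1.46. DIN1 (AT4G35770), a gene of dark-treated and ageing leaves, had 68.7 RPKM in low nitrogen and 215 in control, a ratio of -1.95. Autophagy genes, which deliver cell contents for recycling, had 0 of 13 called either way and a median of 0.11. In the plastid ribosome list 2 of 30 genes were lower and 0 higher, and in the cytosolic ribosome list 1 of 106 was higher and 1 lower, or 16 higher and 1 lower without centring. The cytosolic ribosomal genes summed to 28186 RPKM in low nitrogen leaf and 19089 in control leaf. Their median was 0.20, and 78 of the 106 lay above the median of all genes. The most abundant of them by mean, RPL26A (AT3G49910) and RPL19A (AT1G02780), differed, with 1126 RPKM in low nitrogen and 548 in control for RPL26A and 937 in low nitrogen and 1001 in control for RPL19A.

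**Figure D2:**
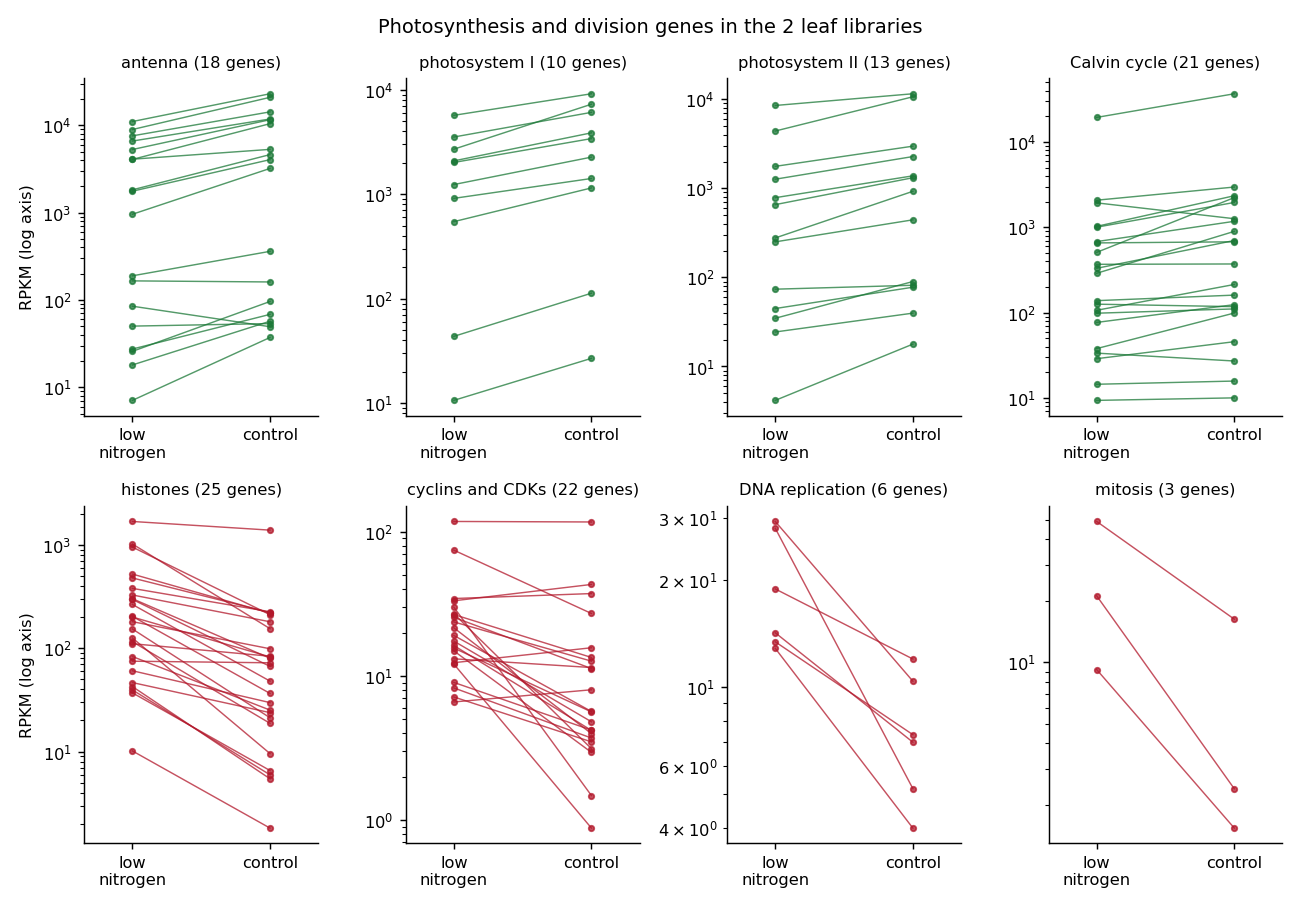
Levels in low nitrogen leaf (left point) and control leaf (right point) of each compared gene of 4 photosynthesis lists (green) and 4 division lists (red), in RPKM on log axes that differ between panels, 1 line per gene. All 10 photosystem I and 13 photosystem II genes are lower in low nitrogen, and all 6 DNA replication and 3 mitosis genes are higher.

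Genes of cell division stood high in low nitrogen leaf. Of 125 genes on the lists of cyclins and cyclin-dependent kinases (CDKs), DNA replication, mitosis and histones, 56 passed the level minimum, and 30 of these were higher and 0 lower, with a median of 1.1, and without centring 34 were higher and 0 lower. Of the 30 higher genes 11 were under 5 RPKM in control leaf and passed only through their level in low nitrogen leaf, so the count is a description. Of the 69 division genes under the minimum 60 had a higher RPKM in low nitrogen and 4 in control. Over all 9614 genes under the minimum these numbers were 5442 and 2478. Summed, the 125 genes came to 8660.1 RPKM in low nitrogen leaf and 3787 in control leaf.

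A- and B-type cyclins drive S phase and mitosis, and 2 of 12 passed the minimum. CYCA1;1 (AT1G44110, scaffold03159) had 30.03 RPKM in low nitrogen and 1.48 in control, a ratio of 3.33. CYCB1;2 (AT5G06150), a marker of G2 and mitosis, had 12.1 RPKM in low nitrogen and 0.88 in control, from 64 reads in low nitrogen and 5 in control. All 12 together summed to 75.7 RPKM in low nitrogen leaf and 10.9 in control leaf, and each of the 10 under the minimum had the higher RPKM in low nitrogen. Their level in control leaf was thus close to the floor of these libraries. Of the D-type cyclins, which start the cycle, 3 of 8 were higher. CYCD3;1 (AT4G34160), associated in Arabidopsis with a longer dividing phase of leaf cells, had 2 homologues called higher, one with 27.1 RPKM in low nitrogen and 3.13 in control and one with 74.6 in low nitrogen and 27.1 in control. CDKB1;2 (AT2G38620), a plant-specific mitotic kinase, had 21.6 RPKM in low nitrogen and 3.98 in control, a ratio of 1.86. CCS52B (AT5G13840), an activator of the complex that degrades cyclins, had 14.9 RPKM in low nitrogen and 2.95 in control. The general kinase subunit CKS1 (AT2G27960), abundant in both, had 118 RPKM in low nitrogen and 117 in control in its main homologue, a ratio of -0.31. When only members averaging 20 RPKM or more were kept, the median of the cyclin and CDK list was -0.24, so its direction rested on genes of low level.

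Replication and mitosis genes followed the cyclins. TSO2 (AT3G27060), a small subunit of ribonucleotide reductase, had 28.1 RPKM in low nitrogen and 5.17 in control, a ratio of 1.92. MCM2 (AT1G44900) of the replicative helicase had 12.9 RPKM in low nitrogen and 4.00 in control. A homologue of the licensing factor CDT1A (AT2G31270) had 29.3 in low nitrogen and 10.4 in control. Another CDT1A homologue had 14.2 in low nitrogen and 6.99 in control, a ratio of 0.61 that was not called. Of 18 mitosis genes 15 were under the minimum, 11 of them with a higher RPKM in low nitrogen and 1 in control. All 3 past it were higher, with a median of 1.69 (1.09 with 5 RPKM added before the log). Of these 2 were under 5 RPKM in control leaf and passed only through their level in low nitrogen leaf. The HMG-box gene 3XHMG1 (AT4G11080), whose protein binds mitotic chromosomes, was the highest of the 3 with 21.2 RPKM in low nitrogen and 2.4 in control. AUR1 (AT4G32830), an Aurora kinase, had 49.0 RPKM in low nitrogen and 16.3 in control. TOP2 (AT3G23890), a topoisomerase that untangles sister chromosomes, had 9.21 in low nitrogen and 1.54 in control.

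Histone genes carried most of the RPKM of the division lists. Of 25 compared 14 were higher and 0 lower, with a median of 1.58, and their sum was 7715 RPKM in low nitrogen leaf and 3317 in control leaf. By protein, 5 of 7 H3 genes, 4 of 7 H4, 3 of 6 H2A, 2 of 3 H2B and 0 of 2 H1 linker genes were higher. HTA7 (AT5G27670), an H2A, had 1018 RPKM in low nitrogen and 155 in control, a ratio of 2.39. A homologue of HTA12 (AT5G02560), also an H2A, had 153 in low nitrogen and 21.2 in control. Further HTA12 homologues outside the naming rule were not called. The most abundant had 521 in low nitrogen and 218 in control, a ratio of 0.93. Another had 111 in low nitrogen and 83.6 in control, a ratio of 0.08. One homologue of HTR1 (AT5G65360), the H3.1 deposited during replication, had 126 RPKM in low nitrogen and 9.57 in control, a ratio of 3.26. HTR8 (AT5G10980), which encodes the replication-independent H3.3, had 1682 RPKM in low nitrogen and 1387 in control in its main homologue, a ratio of -0.04. The replication-dependent and the replication-independent H3 genes thus stood apart in these libraries. Histone copies are near-identical, among them 5 H4 genes on scaffold01196, and reads may have been split between them. Summed over genes with the same homologue, the histone median was 0.95.

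Of the leaf growth regulators 24 of 51 passed the minimum, and 6 of these were higher and 1 lower. The higher genes were mostly low ones: 5 of the 6 were under 5 RPKM in control leaf and passed only through their level in low nitrogen leaf. Of the 27 under the minimum 21 had a higher RPKM in low nitrogen and 5 in control. A homologue of GRF5 (AT3G13960), a growth-regulating factor that promotes leaf cell division in Arabidopsis, had 13.6 RPKM in low nitrogen and 1.7 in control, a ratio of 2.11. Another GRF5 homologue, outside the naming rule, had 8.89 in low nitrogen and 4.63 in control, a ratio of 0.49 that was not called. GRF9 (AT2G45480) had 9.12 RPKM in low nitrogen and 2.78 in control, and ATHB8 (AT4G32880), a vascular HD-ZIP III factor, had 12.9 in low nitrogen and 4.2 in control. GIF1 (AT5G28640), the coactivator of the GRF factors, had 70.7 RPKM in low nitrogen and 29.6 in control, a ratio of 0.91 below the call limit. TCP14 (AT3G47620) went the other way in 2 homologues, with 6.35 RPKM in low nitrogen and 11.3 in control in the called one. Markers of the shoot meristem and flower were close to the floor. Of 15 such genes 14 were under the minimum and 5 were at 0 in both, among them both KNAT2 and both KNAT6 homologues. The 15 summed to 23.9 RPKM in low nitrogen leaf and 21.4 in control leaf, of which AP1 (AT1G69120) held 12.8 in low nitrogen and 12.98 in control.

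Of the epidermis and cuticle genes 1 of 16 was higher and 0 lower, with a median of 0.43 and sums of 618 RPKM in low nitrogen leaf and 368 in control leaf. PDF1 (AT2G42840), of the protoderm layer, had 161 RPKM in low nitrogen and 43.0 in control, a ratio of 1.56. In the stomatal lineage 1 of 4 was higher, the receptor kinase gene ER (AT2G26330) with 16.4 RPKM in low nitrogen and 2.03 in control, while the peptide genes EPFL9 (AT4G12970) and EPF1 (AT2G20875) had ratios of -0.04 and -0.10. Sums over the 13 stomatal lineage genes were 271 RPKM in low nitrogen leaf and 207 in control leaf. Guard cell genes had 1 of 7 higher and 2 lower, or 1 higher and 0 lower without centring. The lower ones included MYB60 (AT1G08810) with 32.2 RPKM in low nitrogen and 61.04 in control in 1 of 2 homologues. The other was the potassium channel gene KAT1 (AT5G46240) with 4.32 in low nitrogen and 7.57 in control. KAT1 rested on 8 reads in low nitrogen and 15 in control, with a counting interval from -2.57 to 0.20. The higher gene was an OST1 (AT4G33950) homologue, with 19.5 RPKM in low nitrogen and 3.64 in control leaf. In root it had 169 RPKM in low nitrogen and 135 in control. The part of leaf age or cell makeup in the division and growth genes was not tested.

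**Figure D3:**
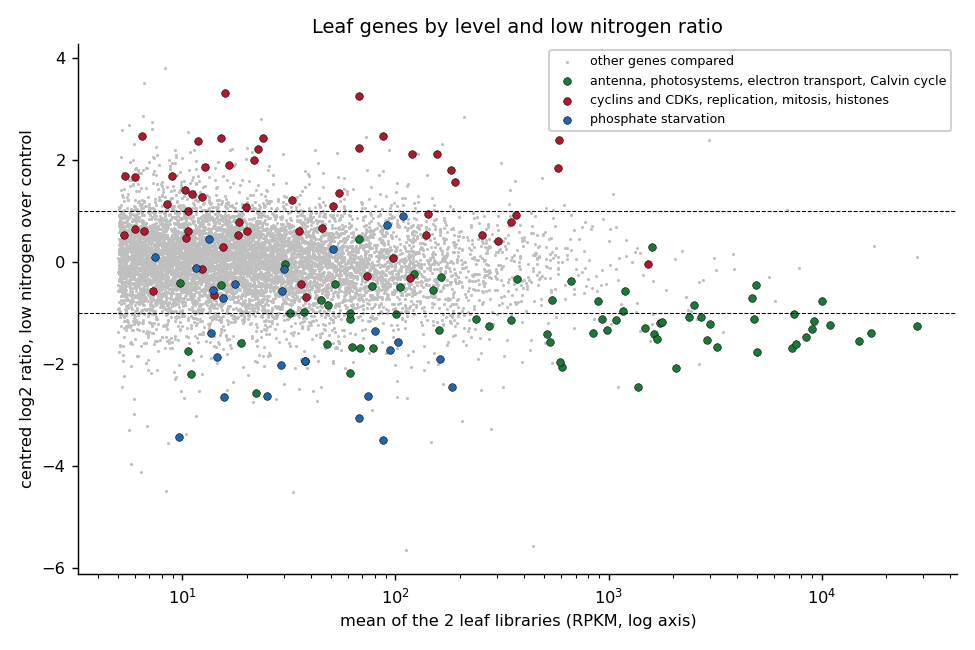
Mean RPKM over the 2 leaf libraries (log axis) against the centred log2 ratio of low nitrogen over control for the 9051 genes, with photosynthesis genes in green, division genes in red, phosphate starvation genes in blue and the call limits of 1 and -1 dashed. Green points fill the lower right (49 of 74 called lower), red points lie mainly above 0 (30 of 56 called higher) and blue points reach -3.47 at middle levels.

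Genes that take up and assimilate nitrogen were called about as often as genes at large, 3 of 26 (11.5%), against 11.9% of all genes compared. Of the nitrate transport genes 6 of 22 passed the minimum and 0 were called, with ratios from -0.90 to 0.27. The dual-affinity transporter and nitrate sensor NRT1.1 (AT1G12110, scaffold03080) had 40.3 RPKM in low nitrogen and 34.6 in control, a ratio of -0.11. NRT1.2 (AT1G69850), a low-affinity carrier, had 10.8 RPKM in low nitrogen and 7.69 in control. NRT1.3 (AT3G21670) and NRT1.4 (AT2G26690), the second of which stores nitrate in the petiole in Arabidopsis, had the lowest ratios of -0.90 and -0.78. The 2 homologues of NRT1.11 (AT1G52190), a carrier that moves nitrate between xylem and phloem, had ratios of 0.27 and -0.53.

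The steps of nitrate reduction diverged. Nitrate reductase NIA2 (AT1G37130, scaffold00366, symbol NR2), which makes nitrite, had 425 RPKM in low nitrogen and 179.9 in control, a ratio of 0.92 just under the call limit and past it without centring. Nitrite reductase NIR1 (AT2G15620, scaffold02135), the next enzyme, had 102 RPKM in low nitrogen and 179 in control, a ratio of -1.12 that was not past the limit without centring. The first enzyme of nitrate reduction was thus higher in RPKM and the second lower, in the same 2 libraries. CNX7 (AT4G10100), of the molybdenum cofactor that nitrate reductase carries, was lower with 44.6 RPKM in low nitrogen and 74.8 in control, again only after centring, while the cofactor genes CNX5 (AT5G55130) and CNX6 (AT2G43760) had ratios of 0.34 and -0.33. UPM1 (AT5G40850), of the sirohaem cofactor of nitrite reductase, had a ratio of 0.01.

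Ammonium assimilation had 1 of 12 genes higher and 0 lower, with a median of 0.20. The called gene was ASPGB1 (AT3G16150), an asparaginase that frees ammonium from asparagine, with 22.5 RPKM in low nitrogen and 7.11 in control and a ratio of 1.22. The ferredoxin-dependent glutamate synthase GLU1 (AT5G04140), which acts in the chloroplast, had 119 RPKM in low nitrogen and 62.5 in control, a ratio of 0.60. Plastid glutamine synthetase GLN2 (AT5G35630), the most abundant gene of the list, had 753 RPKM in low nitrogen and 655 in control, a ratio of -0.12. Its ratio stood well above the median of -1.16 of the photosynthesis lists, whose products work in the same organelle. Cytosolic glutamine synthetases had ratios of 0.28 for GLN1;4 (AT5G16570) and 0.16 and 0.03 for the 2 GLN1;1 homologues (AT5G37600). Asparagine synthetase ASN2 (AT5G65010) had 75.8 RPKM in low nitrogen and 42.3 in control, and glutamate dehydrogenase GDH1 (AT5G18170) had 9.02 in low nitrogen and 5.79 in control. The aspartate aminotransferases ASP1 (AT2G30970), ASP3 (AT5G11520) and ASP5 (AT4G31990) had ratios of 0.11, 0.31 and 0.11, and the asparaginase ASPGA1 (AT5G08100) had -0.35. Of the ammonium carriers AMT1;1 (AT4G13510) had 63.2 RPKM in low nitrogen and 44.3 in control and AMT1;2 (AT1G64780) had 9.04 in low nitrogen and 6.88 in control, and neither was called.

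Regulators of the nitrogen response had 2 of 21 genes lower and 0 higher, with a median of -0.24, against 6.85% lower among all genes compared. HHO2 (AT1G68670), of the HRS1 family of repressors in nitrate signalling, had 7.58 RPKM in low nitrogen and 20.6 in control, a ratio of -1.65. BT1 (AT5G63160), of a BTB protein family that limits nitrate uptake in Arabidopsis, had 16.6 RPKM in low nitrogen and 33.1 in control in one homologue, and a second one, outside the naming rule, had 62.0 in low nitrogen and 30.8 in control. Amino acid transport genes had 0 of 10 called, and the most abundant, AAP3 (AT1G77380), had 276 RPKM in low nitrogen and 248 in control.

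**Figure D4:**
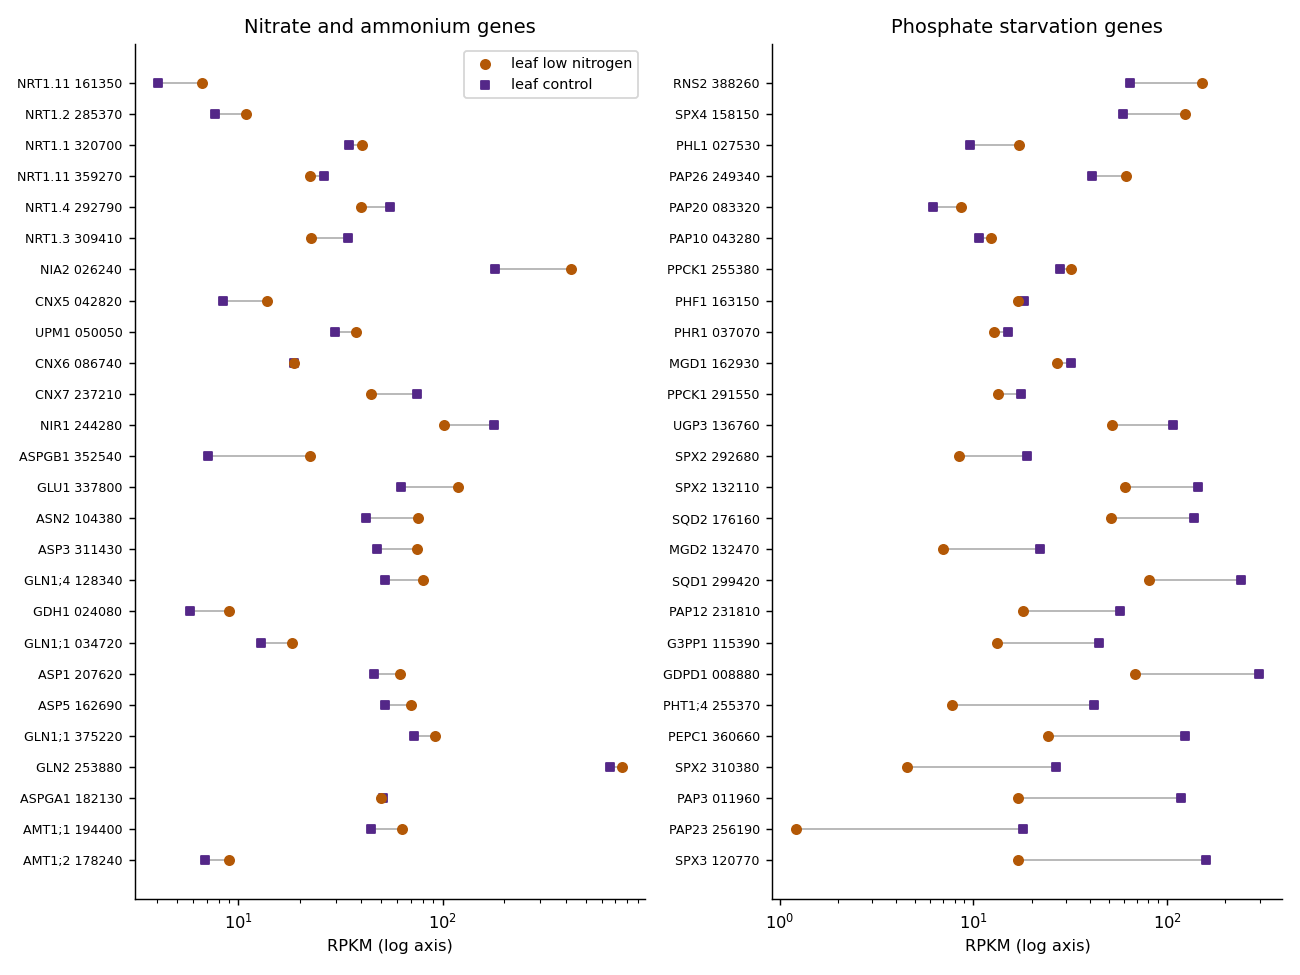
Levels in low nitrogen leaf (orange circles) and control leaf (purple squares), in RPKM on a log axis, of each compared nitrate and ammonium gene (left panel) and each phosphate starvation gene (right panel), labelled by Arabidopsis homologue and the number in the cucumber gene name. In the right panel 15 of 26 genes are called lower, with SPX3 at 16.9 in low nitrogen and 159 in control, whereas 3 of the 26 genes in the left panel are called.

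At the minimum of 5 RPKM, phosphate starvation genes had the second lowest median of all 52 lists, and with no minimum the fourth, above the antenna and both photosystems. Both solutions held the same phosphate salt at the same strength. Of 26 compared genes 15 were lower and 0 higher, with a median of -1.47 (-0.87 with no level minimum), and the 45 genes in the table summed to 925 RPKM in low nitrogen leaf and 1881 in control leaf. SPX3 (AT2G45130, scaffold00998), a phosphate-sensing regulator, had 16.9 RPKM in low nitrogen and 159 in control, a ratio of -3.47. A homologue of SPX2 (AT2G26660) had 4.56 RPKM in low nitrogen and 26.9 in control, a ratio of -2.64. Among purple acid phosphatases, which free phosphate from organic compounds, 3 of 6 were lower and 0 higher. PAP23 (AT4G13700) had 1.21 RPKM in low nitrogen and 18.0 in control and PAP3 (AT1G14700) had 17.0 in low nitrogen and 118 in control. Those not called, outside the naming rule, were PAP26 (AT5G34850), PAP20 (AT3G52780) and PAP10 (AT2G16430), with ratios of 0.26, 0.10 and -0.12. The highest ratio of the whole list, 0.91, was that of RNS2 (AT2G39780), also outside the rule and not called. The phosphatase PEPC1 (AT1G17710) had 24.2 RPKM in low nitrogen and 124 in control, and GDPD1 (AT3G02040), which breaks down glycerophosphodiesters, had 68.0 in low nitrogen and 299 in control. SQD1 (AT4G33030), which makes the sulfolipids that replace phospholipids, had 80.8 RPKM in low nitrogen and 242 in control. The set thus included sensing, scavenging and lipid replacement. Both transcription factors on the list that switch the set on were not called: PHR1 (AT4G28610) had 12.8 RPKM in low nitrogen and 15.2 in control, a ratio of -0.55, and PHL1 (AT5G29000) had 17.2 in low nitrogen and 9.59 in control, a ratio of 0.46. SPX4 (AT5G15330), the SPX gene that phosphate starvation does not induce in Arabidopsis, had 124 RPKM in low nitrogen and 59.3 in control, a ratio of 0.73. These 3 were named after their values were seen.

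Sulfur genes had 2 of 21 lower and 0 higher, with a median of -0.15, against 6.85% lower among all genes compared. Without centring 1 was higher and 1 lower. The low nitrogen solution held more sulfate. LSU2 (AT5G24660), induced by low sulfur in Arabidopsis, had 134 RPKM in low nitrogen and 370.0 in control, a ratio of -1.78. The ATP sulfurylase homologues APS1 (AT3G22890) and APS2 (AT1G19920) differed, APS1 with 79.0 RPKM in low nitrogen and 33.4 in control and APS2 with 3.25 in low nitrogen and 7.08 in control. Sulfate and nitrate differed together between the solutions and cannot be told apart here.

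Aquaporins, the water channels, had 4 of 16 lower and 0 higher, with a median of -0.54. The tonoplast channel TIP1;1 (AT2G36830) had 943 RPKM in low nitrogen and 2205 in control, a ratio of -1.54, and TIP2;1 (AT3G16240) had 24.6 in low nitrogen and 77.0 in control. Plasma membrane channels PIP2;4 (AT5G60660) and PIP1;4 (AT4G00430) were lower as well, PIP2;4 with 467 RPKM in low nitrogen and 911 in control and PIP1;4 with 117 in low nitrogen and 257 in control.

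Carbon storage and transport genes split. Of 24 starch genes 1 was higher and 4 lower, or 3 higher and 1 lower without centring. Starch synthesis genes differed. GBSS1 (AT1G32900), the granule-bound synthase that makes amylose, had 297 RPKM in low nitrogen and 711 in control, a ratio of -1.58. It was the 1 starch gene lower without centring. APL1 (AT5G19220), a large subunit of ADP-glucose pyrophosphorylase, was lower after centring with 92.7 in low nitrogen and 174 in control. Another large subunit gene outside the naming rule, APL3 (AT4G39210), had 21.8 in low nitrogen and 8.66 in control. Its ratio of 0.92 was not called. GPT2 (AT1G61800), which imports glucose 6-phosphate into plastids, was lower with 25.8 RPKM in low nitrogen and 52.2 in control. The one higher gene was PHS2 (AT3G46970), a cytosolic phosphorylase of starch breakdown, with 120.2 RPKM in low nitrogen and 33.9 in control and a ratio of 1.48. Cucurbits load raffinose-type sugars into the phloem, and the galactinol synthases that start this pathway differed. GolS4 (AT1G60470, scaffold02653) had 2.56 RPKM in low nitrogen and 63.4 in control, a ratio of -4.50 from 7 reads in low nitrogen and 186 in control. GolS2 (AT1G56600), the dominant one, had 2605 RPKM in low nitrogen and 2739.7 in control, a ratio of -0.39. The raffinose synthase homologue RS5 (AT5G40390) had 399.9 RPKM in low nitrogen and 205 in control, a ratio of 0.64.

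Phloem genes had 3 of 8 lower and 1 higher, and the 24 in the table summed to 405 RPKM in low nitrogen leaf and 809 in control leaf. All 3 lower genes were homologues of PP2-A1 (AT4G19840), a lectin of the sieve tubes, at 28.0 RPKM in low nitrogen and 266 in control, at 36.7 in low nitrogen and 189 in control, and at 18.4 in low nitrogen and 34.2 in control. SEOR1 (AT3G01680), a filament protein of sieve elements, had 208 RPKM in low nitrogen and 237 in control in its main homologue and 15.7 in low nitrogen and 3.1 in control in the called one. The called phloem genes were thus 3 lectin homologues, all lower, and 1 low filament homologue that was higher, with the main filament gene at a ratio of -0.51. In organic acid metabolism 3 of 20 genes were lower and 1 higher, with a median of -0.12. TDT (AT5G47560), which carries malate into the vacuole, had 1.48 RPKM in low nitrogen and 19.4 in control, a ratio of -3.36. PPC3 (AT3G14940), a phosphoenolpyruvate carboxylase, had 19.8 RPKM in low nitrogen and 54.3 in control, a ratio of -1.73.

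Clock genes were called in both directions, 6 of 18 higher and 3 lower. ELF4 (AT2G40080, scaffold03639), an evening complex gene, had 127 RPKM in low nitrogen and 17.8 in control, a ratio of 2.45, and its partner ELF3 (AT2G25930) had 52.6 in low nitrogen and 16.7 in control. GI (AT1G22770), an evening gene that times flowering, had 193 RPKM in low nitrogen and 62.1 in control, a ratio of 1.3. COL2 (AT3G02380) and CDF1 (AT5G62430), which peak early in the day in Arabidopsis, were lower, COL2 with 2.37 RPKM in low nitrogen and 20.7 in control and CDF1 with 2.53 in low nitrogen and 11.3 in control. The other called genes lay outside the naming rule. Among them a second GI homologue had 81.6 RPKM in low nitrogen and 27.7 in control, the evening gene TOC1 (AT5G61380) had 19.1 in low nitrogen and 6.89 in control and the morning gene LHY (AT1G01060) had 3.56 in low nitrogen and 7.56 in control. RVE6 (AT5G52660), a dawn gene in Arabidopsis, was also higher, with 13.01 RPKM in low nitrogen and 3.64 in control and a ratio of 1.27. The 9 genes not called included the evening gene FKF1 (AT1G68050), at a ratio of 0.07, and 2 CDF3 (AT3G47500) homologues, at -0.28 and -0.30. Among the called genes the evening ones were higher and the early-day ones lower, with RVE6 the exception. The hour of each harvest is not given, so harvest hour and nitrogen cannot be told apart. GRP7 (AT2G21660), an abundant clock-regulated RNA-binding protein, had 2612 RPKM in low nitrogen and 1791 in control, a ratio of 0.22.

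Of 117 genes on the 6 hormone lists 18 (15.4%) were called, 6 higher and 12 lower, against 11.9% of all genes compared, and no hormone had more than 6 called. Cytokinin carries nitrogen status between organs, and 1 of 20 genes was higher and 1 lower. LOG5 (AT4G35190), which activates cytokinin, had 179 RPKM in low nitrogen and 48.9 in control, a ratio of 1.53. ARR4 (AT1G10470), a response regulator that cytokinin induces, had 17.56 RPKM in low nitrogen and 54.4 in control, a ratio of -1.90. The synthesis gene IPT5 (AT5G19040) had 13.7 RPKM in low nitrogen and 5.01 in control, a ratio of 0.97 just under the limit. Ethylene had 2 of 19 higher and 0 lower, with a median of 0.47. These were ERF1 (AT3G23240), a response factor, with 11.3 RPKM in low nitrogen and 1.82 in control, and EBF1 (AT2G25490), which degrades the EIN3 factor, with 98.1 in low nitrogen and 28.2 in control. Auxin had 1 of 22 higher, the influx carrier AUX1 (AT2G38120) with 15.9 RPKM in low nitrogen and 2.51 in control, and 4 lower. The lower ones were Aux/IAA repressor genes, of which IAA7 (AT3G23050) had 8.15 RPKM in low nitrogen and 22.8 in control and the called IAA14 (AT4G14550) homologue 3.01 in low nitrogen and 8.43 in control.

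Abscisic acid and dehydration genes had 5 of 30 lower and 1 higher, and LEA4-5 (AT5G06760), a protective protein of drying cells, was listed at 0 in low nitrogen and 11.5 RPKM in control, at least 3.88-fold lower after centring if 3 reads are set as the floor, with a counting interval that ended at a log2 ratio of -1.38. The synthesis gene ABA2 (AT1G52340) had 136 RPKM in low nitrogen and 238 in control in its main homologue. Gibberellin genes had 1 of 8 lower and 0 higher, and the peptide gene GASA6 (AT1G74670) reached 942 RPKM in low nitrogen and 398 in control, a ratio of 0.92. Jasmonate genes had 1 of 18 higher and 1 lower. Flavonoid and lignin genes had 3 of 16 higher and 1 lower. Chalcone synthase CHS (AT5G13930), the entry enzyme of flavonoids, had 226 RPKM in low nitrogen and 54.2 in control, a ratio of 1.72, and F3'H (AT5G07990), which hydroxylates them, had 10.6 in low nitrogen and 1.71 in control. PAL1 (AT2G37040), the first enzyme of the whole pathway, had 9.81 RPKM in low nitrogen and 23.4 in control, a ratio of -1.49. The pathway's entry gene and its flavonoid branch thus differed in direction for these homologues.

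**Figure D5:**
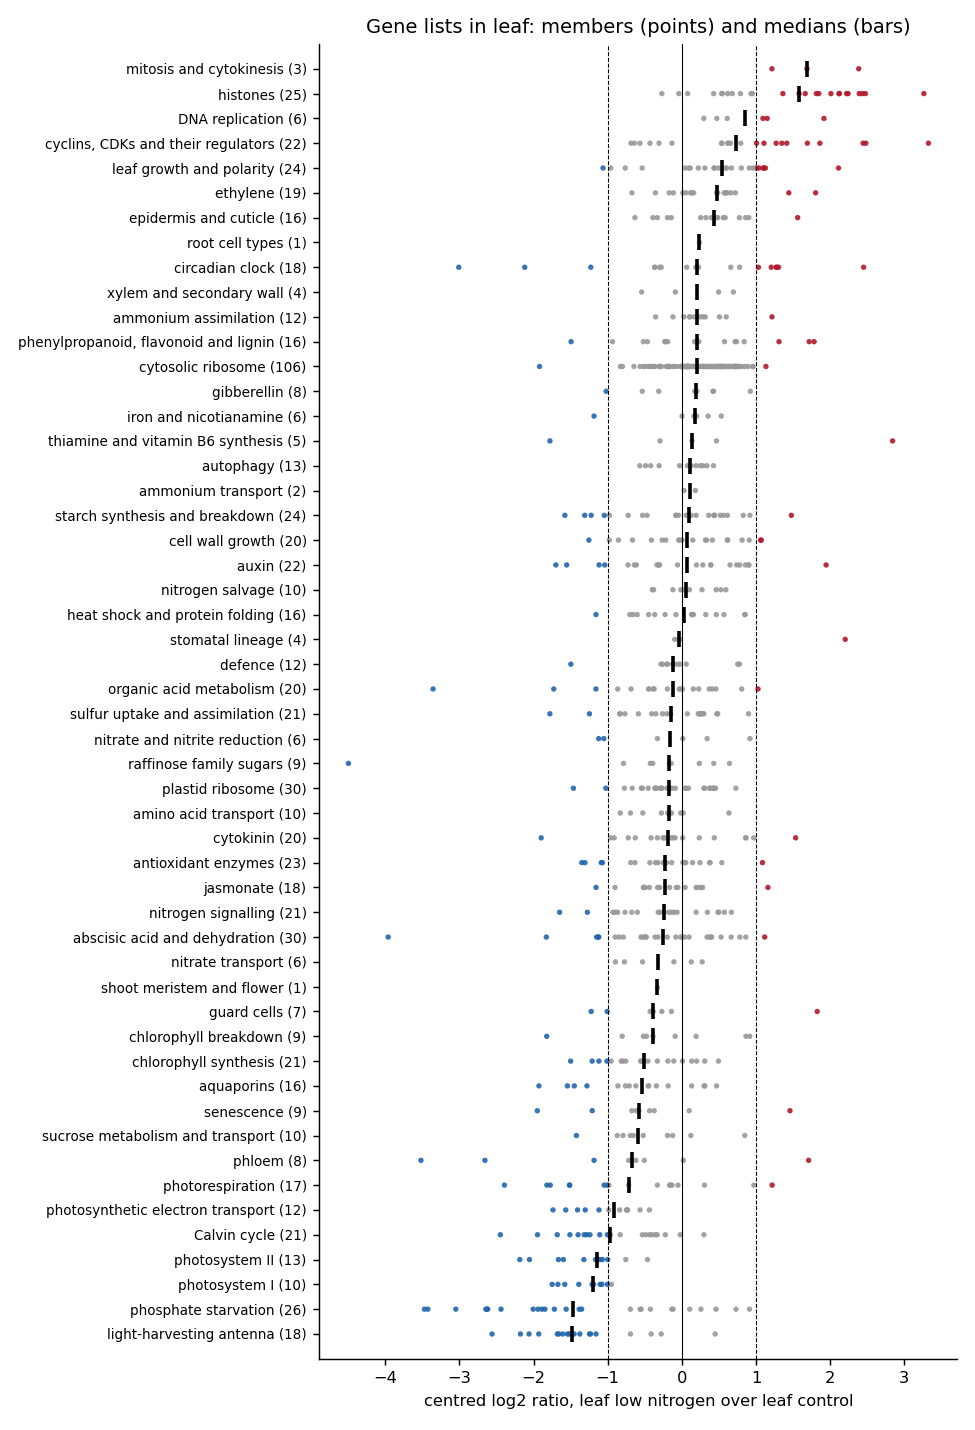
Centred log2 ratios of low nitrogen over control leaf for the compared genes of all 52 lists, 1 point per gene (red called higher, blue called lower, grey not called), with the list median as a black bar and the number of genes in brackets. Histones (median 1.58) and mitosis (1.69) lie at the top and the antenna (-1.49) and phosphate starvation (-1.47) at the bottom.

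The most extreme genes included several of no listed pathway. Of the 15 highest, RSM2 on scaffold03806 (AT4G39250, a RADIALIS-like MYB gene) was at 16.5 RPKM in low nitrogen and listed at 0 in control, at least 3.15-fold higher after centring with 3 reads set as the floor, and its counting interval began at a log2 ratio of 1.108. The unnamed homologue of AT5G59845 (scaffold04100) was at 13.2 RPKM in low nitrogen and listed at 0 in control, at least 3.72-fold higher on the same terms, with an interval from 1.39. THIC (AT2G29630, scaffold01100), which makes the pyrimidine part of thiamine, was the most abundant of the 15 with 379 RPKM in low nitrogen and 41.5 in control, a ratio of 2.84 and a counting interval from 2.72 to 3.03. Its partner THI1 (AT5G54770), which makes the thiazole part, had 5702 RPKM in low nitrogen and 5601 in control, a ratio of -0.29. The histone chaperone SGA1 (AT5G38110) had 19.4 RPKM in low nitrogen and 1.79 in control, and OFP8 (AT5G19650), of the ovate repressor family, had 13.7 in low nitrogen and 0.75 in control, from 17 reads in low nitrogen and 1 in control. LPAT2 (AT3G57650), a lysophosphatidic acid acyltransferase of membrane lipid synthesis, had 13.4 RPKM in low nitrogen and 0.89 in control, and MEE68 (AT4G24660) had 10.8 in low nitrogen and 0.46 in control. Unnamed homologues of AT1G23000, AT5G16250 and AT1G10780 completed the 15, AT1G23000 with 12.5 RPKM in low nitrogen and 0.49 in control, AT5G16250 with 42.7 in low nitrogen and 3.96 in control and AT1G10780 with 9.95 in low nitrogen and 0.46 in control. The remaining 5 were the division genes and ELF4 described above.

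At the low end, MEE66 (AT2G02240, scaffold00557) had the lowest ratio of all, -5.64, with 4.52 RPKM in low nitrogen and 219 in control. The next, -5.55, belonged to Cucsa.124940 (scaffold01001), a gene with no Arabidopsis homologue in the table and one of the more abundant of control leaf, with 21.8 RPKM in low nitrogen and 859 in control, from 67 reads in low nitrogen and 2823 in control. A further 4 genes with no homologue were among the 15 lowest. Cucsa.181030 (scaffold01239) had 64.4 RPKM in low nitrogen and 500.0 in control. Cucsa.129040 (scaffold01028) had 0.85 RPKM in low nitrogen and 12.7 in control, from 1 read in low nitrogen and 16 in control, too few to place its ratio closely. Cucsa.360880 (scaffold03588) and Cucsa.212250 (scaffold01543) were listed at 0 in low nitrogen, against 16.8 and 12.8 RPKM in control, and for Cucsa.212250 this was at least 3.11-fold lower after centring, with an interval that ended at -0.99. Unnamed homologues of AT1G12030, AT4G36850 and AT3G06070 were also among them, AT3G06070 with 51.3 RPKM in low nitrogen and 359.5 in control, AT1G12030 with 0.85 in low nitrogen and 16.3 in control and AT4G36850 with 0.51 in low nitrogen and 10.7 in control. The rest of the 15 were the phosphate, phloem, sugar, dehydration and malate genes given above.

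Genes without a homologue had the largest share of calls among 3 classes of annotation. Of 278 such genes compared 31 (11.2%) were higher and 38 (13.7%) lower, against 4.91% and 7.68% of the 3868 genes with a symbol and 4.75% and 5.81% of the 4905 with a homologue and no symbol. Copies of 1 Arabidopsis gene could differ. The 934 homologues with at least 2 compared cucumber genes held 2041 genes. Of the 934, 217 had a called copy, where 11.9% of all single genes compared were called. In 8 all copies were higher and in 14 all were lower. The median spread between copies was 0.60, beside quartiles of -0.41 and 0.40 over all genes compared. Whether copies differed more or less than unrelated genes was not tested. Copies were called in both directions for 6 homologues. The widest was CYP706A4 (AT4G12300), a cytochrome P450, whose 3 genes on scaffold02951 had 21.2 RPKM in low nitrogen and 3.99 in control, 85.6 in low nitrogen and 65.3 in control, and 24.2 in low nitrogen and 77.9 in control. GSTU8 (AT3G09270), a glutathione transferase, had 118 RPKM in low nitrogen and 43.2 in control in its higher copy, and its 2 lower copies had 44.7 in low nitrogen and 76.5 in control, and 3.90 in low nitrogen and 9.84 in control. The cyclophilin ROC7 (AT5G58710) had one copy with 36.1 RPKM in low nitrogen and 12.9 in control and one with 30.3 in low nitrogen and 66.7 in control, and TINY2 (AT5G11590), an AP2-type factor, had 16.03 in low nitrogen and 5.48 in control in one and 3.68 in low nitrogen and 7.35 in control in the other. AT5G52900 and AT1G10310 completed the 6, AT5G52900 with 50.2 RPKM in low nitrogen and 18.4 in control in one copy and 59.2 in low nitrogen and 140.4 in control in the other, and AT1G10310 with 18.0 in low nitrogen and 5.12 in control and 155 in low nitrogen and 346 in control in its called copies. A value of 1 Arabidopsis homologue therefore does not stand for each of its cucumber genes.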

How the data were processed

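Total RNA of 2 leaf libraries and, for the organ check, 2 root libraries was sequenced on an Illumina platform after preparation with an Illumina gene expression kit, per the labels' protocols. The submitters' processing notes name Bowtie 0.12.9, and the sources used here do not give the assembly, the gene models or the counting. The authors deposited RPKM values for 18665 genes with a length, a TAIR identifier and a symbol. Whether each read stood for a whole fragment or for 1 tag per transcript is not given. The ratios compare each gene between libraries. Classes of level, rankings by abundance and sums over genes also compare RPKM between genes and carry this limit. Of the gene names 0 matched the reference gene table, which was not used.

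Ratios were log2((low nitrogen + 1)/(control + 1)), which understates changes of low genes, minus their median over genes that averaged 5 RPKM or more. Genes were called at 1 and -1. With 1 library a group there is no test. Depths came from the steps of low RPKM values. Read counts were the smallest whole numbers that gave the deposited values of all 4 libraries to within 0.00501 RPKM at 1 length. That length could be shorter than the deposited one, so true counts may be larger. Exact conditional 95% intervals used these counts, centred and without the added 1. The ratio step was tested on simulated data. Lists comprised 1348 Arabidopsis genes in 52 groups, 945 of them in the table. The members and lists were chosen with earlier results of these data known. Named were the 15 highest and 15 lowest genes, all nitrate and ammonium genes, up to 5 genes by ratio and 2 by level per other list, the 10 most abundant genes and up to 6 homologues with copies called both ways. For brevity some of these are given only by their counts. The 10 alternatives covered the added value, the level minimum, the centring and summing by homologue. numpy 2.4.6, pandas 2.3.3, scipy 1.17.1 and matplotlib 3.10.9 were used.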

Additional observations from a re-analysis of the deposited data

Results flagged for a closer look

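Among the genes named for leaf, 2 were called in leaf and called in the opposite direction in root, where the same rule was applied to the root libraries. The difference between the organs was not tested, since each group is 1 library.

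GBSS1 (AT1G32900, scaffold01335), the granule-bound starch synthase, had 297 RPKM in low nitrogen and 711 in control leaf, a ratio of -1.58. In root it had 81.7 RPKM in low nitrogen and 24.2 in control, a ratio of 1.69. JAZ10 (AT5G13220, symbol TIFY9, scaffold00919), a repressor of jasmonate responses, had 24.1 RPKM in low nitrogen and 7.99 in control leaf, a ratio of 1.16. In root it had 3.68 RPKM in low nitrogen and 10.04 in control, a ratio of -1.26.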

How the results depend on the processing

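No paired analysis was possible because each group has 1 library, and none could be left out. The count of genes higher and lower was 214 and 372 with 5 RPKM added before the log, 791 and 1005 with a level minimum of 1 RPKM, 201 and 293 with one of 20 RPKM, and 939 and 1223 with no minimum. Scaling turned the balance, to 1109 and 290 without centring and 1266 and 267 with equal RPKM sums. Homologues with copies called both ways numbered 1 with 5 RPKM added, and 19, 3 and 29 with minima of 1 and 20 RPKM and none. Genes at 0 in one leaf library numbered 167, 0 and 1966 under these minima, and 3 when genes of 1 homologue were summed. Without centring, higher and lower genes numbered 9 and 0 for leaf growth, 7 and 2 for the clock, 4 and 1 for cytokinin, 6 and 2 for auxin, 3 and 2 for abscisic acid, 6 and 1 for flavonoids and lignin, 4 and 0 for the epidermis, and 0 and 1 for chlorophyll synthesis. With 0.1 RPKM added, equal upper quartiles or centring on genes of at least 1 RPKM, each count stayed within 1.5 times its main value. Of 516 recomputed list medians 507 moved by under 0.5. Of 3311 recomputed ratios of named genes 3212 moved by under 0.5 or stayed in their counting interval, and 88 moved further. Sign changes were counted only for genes called in the main setting. Ratios of genes not called could also change sign, as some just below the median did without centring, and are not in this count. Among the called genes 11 ratios changed sign. All 11 did so when copies were summed, and the sums then had ratios of -0.69 for AT5G59845, -0.86 for AT5G52900, -1.16 for AT1G10310, -0.31 for EXPA1, -0.49 for CYP706A4, -0.58 for ROC7, -0.39 for SEOR1, 0.37 for TINY2, 0.14 for RPS12C and 0.011 for the 2 lower GSTU8 copies. Genes near 5 RPKM rest on few reads, and a difference of less than their counting interval was not detectable at this depth.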

Other observations

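On 2 scaffolds neighbouring genes without a homologue were called lower in leaf. They were chosen after their values were seen. On scaffold01239 all 3 such genes were lower: Cucsa.181030 had 64.4 RPKM in low nitrogen and 500.0 in control, Cucsa.181050 had 415 in low nitrogen and 1809 in control and Cucsa.181070 had 60.4 in low nitrogen and 213 in control. The 2 genes that lie among them in the numbering, Cucsa.181060 and Cucsa.181080, both homologues of AT2G44310, stood at 0.88 and 2.06 RPKM in low nitrogen and at 0 in control, and FLA7 (AT2G04780) beside them had 115 RPKM in low nitrogen and 68.6 in control. The run of lower genes thus did not extend to these neighbours. On scaffold01658 Cucsa.218490 had 3.63 RPKM in low nitrogen and 20.3 in control and Cucsa.218500 had 16.1 in low nitrogen and 73.4 in control. Of the other 2 such genes beside them Cucsa.218480 was not called, with 7.48 RPKM in low nitrogen and 10.2 in control and a ratio of -0.72, and Cucsa.218510 was at 0 in both leaf libraries and at 3473 RPKM in low nitrogen root and 3844 in control root. Alike copies could share reads, which was not tested.

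Among abundant genes the largest ratio above 0 outside the naming rule was that of CCL (AT3G26740, scaffold01139), a CCR-like gene of clock-regulated transcript decay in Arabidopsis. It had 5138 RPKM in low nitrogen and 785 in control, a ratio of 2.39 with a counting interval from 2.26 to 2.52, and was singled out after its value was seen.

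Protection genes were mixed. Over all genes compared 5.02% were higher and 6.85% lower, and the counts below are to be set against these shares. Of 23 antioxidant genes 1 was higher and 4 were lower. Catalase CAT2 (AT4G35090), which removes the peroxide of photorespiration, had 928 RPKM in low nitrogen and 1895 in control in its main homologue, a ratio of -1.35. Glutathione reductase GR2 (AT3G54660) had 47.5 RPKM in low nitrogen and 17.3 in control, a ratio of 1.09. Of 16 heat shock genes 1 was lower and 0 higher, and the chaperone gene HSP90.2 (AT5G56030) had 159 RPKM in low nitrogen and 70.2 in control. Of 12 defence genes 1 was lower and 0 higher, the pathogenesis-related PR1 (AT2G14610) with 24.4 RPKM in low nitrogen and 56.5 in control. Of 6 iron genes 1 was lower and 0 higher, the ubiquitin ligase gene BTS (AT3G18290), which restrains iron uptake, with 7.99 RPKM in low nitrogen and 15.4 in control. Cell wall growth genes had 2 of 20 higher and 1 lower, and the wall enzyme XTH9 (AT4G03210) had 735 RPKM in low nitrogen and 279.7 in control, a ratio of 1.07. Nitrogen salvage genes, which recycle nitrogen from purines, pyrimidines, urea, arginine and proline, had 0 of 10 called, with PYD1 (AT3G17810), of uracil breakdown, at 49.4 RPKM in low nitrogen and 25.8 in control. Xylem genes had 0 of 4 called, and the 20 in the table summed to 50.5 RPKM in low nitrogen leaf and 38.7 in control leaf.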
